A study of Mus musculus with 3 samples.

Results

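The genes described here were *Neurod4*, *Neurod1*, *Insm1*, *Sox4*, *Sox11*, *Dcx* and *Igfbpl1*, which mark neurogenesis and immature neurons. They were picked by symbol as 7 of the 33353 genes listed, and they were followed across all 2060 cells. Single-cell RNA-seq was performed on 3 *Ednrb*-/- mice at postnatal day 14, with 1 library per mouse. Cells were sorted for tdTomato from the longitudinal muscle and myenteric plexus (LMMP) of the small intestine. *Ednrb* encodes an endothelin receptor needed by enteric neural crest, and its loss is a model of Hirschsprung disease. The strain label is C57BL/6, the reporter is driven by *Wnt1*-Cre, which marks neural crest derivatives, and every mouse carried the same *Ednrb* deletion. The authors kept the cells they held to be neurons. All mice belonged to 1 condition, so comparisons run between cells within the mice, and no other genotype or age was analysed here.

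New enteric neurons arise from neural crest progenitors that share many genes with enteric glia. Proneural basic helix-loop-helix factors start the program, and factors such as the NeuroD family, *Insm1* and the SoxC genes act as cells leave the progenitor state. Growing neurons then build a cytoskeleton with doublecortin and other microtubule proteins before synaptic and neurofilament genes rise.

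*Neurod4* and *Sox11* are shown by the 250 bases before their start sites, since *Sox11* was higher in *Neurod4*-positive cells below. Capitals mark the E-box CANNTG, the core bound by basic helix-loop-helix factors, which reads the same on both strands. The sequences are from RefSeq on GRCm38.p6, minus strand, 5′ to 3′, at chr10:130280255-130280504 for *Neurod4* and chr12:27342719-27342968 for *Sox11*.
Neurod4: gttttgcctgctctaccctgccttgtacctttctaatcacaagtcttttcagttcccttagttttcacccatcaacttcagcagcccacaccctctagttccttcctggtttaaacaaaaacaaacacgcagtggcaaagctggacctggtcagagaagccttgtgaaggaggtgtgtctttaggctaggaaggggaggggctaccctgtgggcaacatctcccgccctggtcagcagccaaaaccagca
Sox11: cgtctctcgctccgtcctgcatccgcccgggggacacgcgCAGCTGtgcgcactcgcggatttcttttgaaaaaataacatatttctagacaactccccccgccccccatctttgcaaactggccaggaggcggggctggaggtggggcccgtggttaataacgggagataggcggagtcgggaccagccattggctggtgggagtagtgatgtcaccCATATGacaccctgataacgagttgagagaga
These letters occurred 2 times in the *Sox11* window and 0 times in the *Neurod4* window, and 66.1% of 27018 promoter windows of the same length held at least 1. A match is a description of the sequence and not a bound site. Entries were matched for 5 of the 7 genes, and none was matched for *Insm1* or *Igfbpl1*.

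Depth differed between the mice. RNA molecules were counted by unique molecular identifiers (UMIs). The median cell held 3734.5 UMIs in mouse 1 (354 cells), 9599.5 in mouse 2 (1050 cells) and 9578.5 in mouse 3 (656 cells). Between 1 and 2 cells of each mouse had a barcode also seen in another mouse. *Ednrb* itself had a UMI in 42.7%, 68.9% and 58.8% of the cells of mice 1, 2 and 3, and UMIs summed over a gene cannot check the deletion. Levels below are UMIs per 10000 UMIs of the same cells, and a cell was positive at 1 UMI or more. Because deeper cells are positive more often, shares were also taken with every cell thinned to 3000 UMIs. Cells below that depth, 78 in mouse 1, 55 in mouse 2 and 45 in mouse 3, were then dropped. Intervals are exact 95% intervals that cover counting error only.

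The basic helix-loop-helix factors came first. *Neurod4* (chromosome 10, 130268152 to 130280240, minus strand, GENCODE M21 on GRCm38), a NeuroD factor, was the rarest member detected, with 1, 60 and 48 positive cells in mice 1, 2 and 3, or 0.282%, 5.71% and 7.32%. Its level was 0.00655, 0.0908 and 0.122 UMIs per 10000, a mean of 0.0730 ± 0.0596 (SD, n = 3). Mice 2 and 3 were close to each other and mouse 1 held a single UMI. *Neurod1* (chromosome 2, 79452521 to 79456751), its close relative, had 0 UMIs in all 2060 cells, which allows a share of cells with a UMI of up to 0.146% (3 counts of the total) and does not limit the share of cells expressing it.

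*Insm1* (chromosome 2, 146221921 to 146225020), a zinc finger repressor of cells leaving the progenitor state, was positive in 10.5%, 31.6% and 27.3% of the cells of mice 1, 2 and 3. Its level was 0.275, 0.530 and 0.515, a mean of 0.440 ± 0.143 (SD, n = 3). Of the 548 positive cells, 347 held a single UMI. After thinning, the shares were 5.43%, 15.3% and 12.6%, so mouse 1 remained the lowest.

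The SoxC factors *Sox4* (chromosome 13, 28948919 to 28953713) and *Sox11* (chromosome 12, 27334264 to 27342574) switch on genes of young neurons, and *Sox4* is also used by many other cells. *Sox4* was the most widely detected member, in 68.1%, 77.5% and 70.9% of the cells of mice 1, 2 and 3, at 4.05, 3.74 and 3.65 UMIs per 10000. Its mean level of 3.81 ± 0.209 (SD, n = 3) varied least among the mice in proportion to its size. *Sox11* was positive in 18.9%, 47.7% and 51.1% of cells, at 0.590, 1.23 and 1.61 UMIs per 10000, so mouse 1 was again the lowest.

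*Dcx* (chromosome X, 143855842 to 143933311) encodes doublecortin, a microtubule protein of migrating and growing neurons. It was positive in 23.7%, 28.9% and 36.3% of the cells of mice 1, 2 and 3, at 0.799, 0.488 and 0.622 UMIs per 10000. With thinning the shares were 21%, 13.4% and 17.8%, so mouse 1 was the lowest by raw share and the highest by level and by thinned share. *Igfbpl1* (chromosome 4, 45809468 to 45826923), a secreted protein related to the insulin-like growth factor binding proteins, was positive in 1, 142 and 78 cells, or 0.282%, 13.5% and 11.9%. Its level was 0.0131, 0.324 and 0.318, with only 2 UMIs in mouse 1.

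*Neurod4* and *Igfbpl1* were low in mouse 1 at equal depth too. At the rate of mice 2 and 3 together, its total would hold 15.7 UMIs of *Neurod4*, and 1 was seen (interval 0.0253 to 5.57), and 49.1 of *Igfbpl1*, and 2 were seen (0.242 to 7.22). After thinning, *Neurod4* was in 0.362%, 2.71% and 2.29% and *Igfbpl1* in 0.362%, 6.63% and 6.55% of the cells of mice 1, 2 and 3. For *Insm1* the numbers were 80.0 and 42 (30.3 to 56.8), for *Sox11* 210.4 and 90 (72.4 to 110.6), for *Dcx* 82.3 and 122 (101.3 to 145.7) and for *Sox4* 565.8 and 618 (570.2 to 668.7). These intervals cover counting error only and treat the rate of mice 2 and 3 as exact, and mice 2 and 3 also differed from each other by that measure, at 1.17 to 1.30 against 1.51 to 1.71 UMIs per 10000 for *Sox11* and 0.446 to 0.532 against 0.563 to 0.686 for *Dcx*. They do not test mouse 1 against the spread between mice, and with 1 library per mouse, a difference of the mouse and of the library cannot be told apart.

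**Figure D1:**
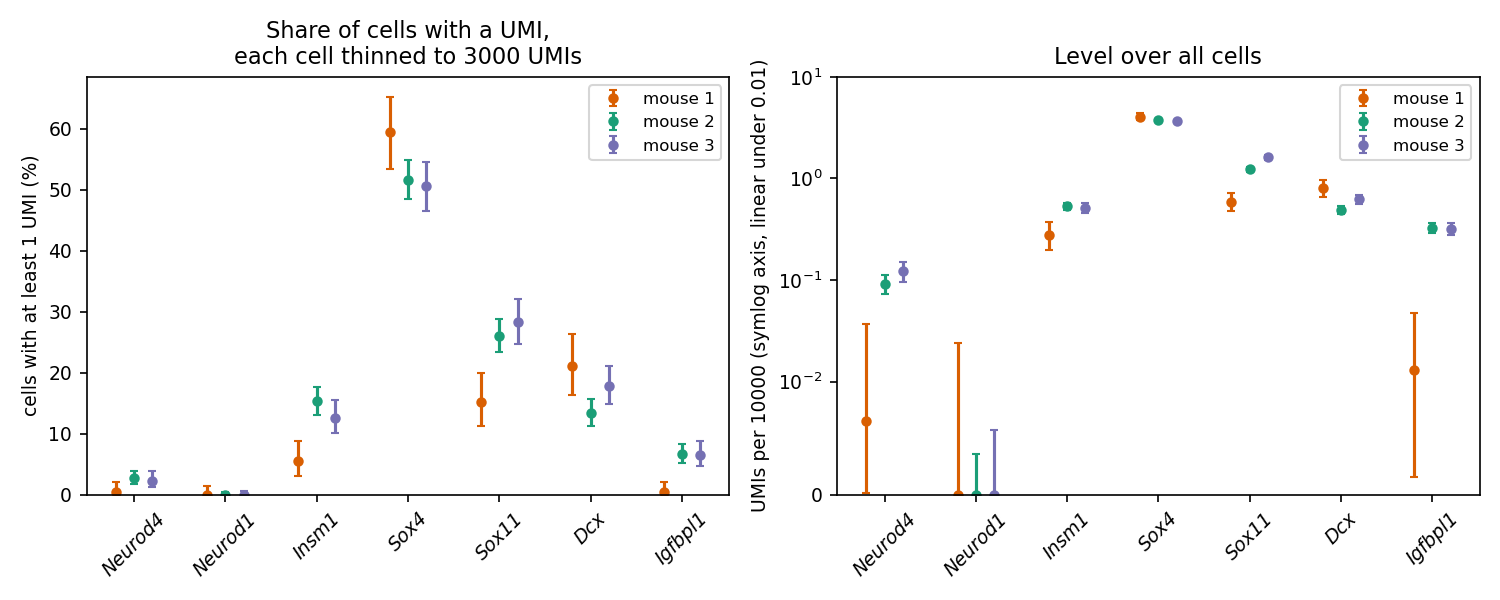
The left panel gives the share of cells with at least 1 UMI of each gene (%, cells thinned to 3000 UMIs) and the right panel the level in UMIs per 10000 over all cells (symlog axis), with 1 point per mouse and exact 95% counting intervals. Mouse 1 lies below mice 2 and 3 for *Neurod4*, *Insm1*, *Sox11* and *Igfbpl1* and above them for *Dcx* and *Sox4*, and *Neurod1* is at 0 in all mice.

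The neuron label was checked on markers. All 10 neuronal markers were detected, but 43 cells (34, 8 and 1 in mice 1, 2 and 3) had 3% or more of their UMIs in 10 smooth muscle markers, a limit set after the data were seen. In the 34 cells of mouse 1 the neuronal markers summed to 4.02 UMIs per 10000, against 43.3 and 37.3 in the cells of mice 2 and 3, where *Snap25* was in 100% of the 8 cells and 0% of the 1 cell. The 34 cells of mouse 1 were therefore the nearest to cells without neuronal genes, and they were set against the other 320 cells of that mouse, at median depths of 3794.5 and 3734.5 UMIs. *Insm1* had a UMI in 0% of the 34 against 11.6% of the others, and *Dcx* in 2.94% against 25.9%. *Sox11* was in 14.7% against 19.4% and *Sox4* in 64.7% against 68.4%. After thinning *Sox11* was in 17.2% against 15% and *Sox4* in 48.3% against 60.7%, so the order of the *Sox11* shares turned with thinning. *Neurod4* and *Igfbpl1* were each in 0 of the 34 and 1 of the 320 cells, too few to compare.

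Cells were then divided into classes that share no cell. *Sox10*, a factor of glia and crest progenitors, had a UMI in 1088 cells (52.8%), called *Sox10*-positive. Among the rest, *Nos1*-only cells (418) had the nitric oxide synthase gene without *Chat*, and *Chat*-only cells (172) had the acetylcholine synthase gene without *Nos1*. *Bnc2*-only cells (73) had *Bnc2* without *Nos1*, *Chat* or *Etv1*, and *Etv1*-only cells (103) had *Etv1* without the other 3. Summed over 10 enteric glial markers, *Sox10* among them, *Sox10*-positive cells had 18.7 UMIs per 10000 and the other 4 classes 1.86 to 8.42. The 10 neuronal markers summed to 59.6 in *Sox10*-positive cells and to 52.4 to 82.6 in the other 4 classes. Of the *Sox10*-positive cells, 54.9% had a UMI of *Nos1*, 70.5% of *Etv1*, 25.6% of *Bnc2* and 14.5% of *Chat*. This class is therefore not a set of glia without neuronal genes. The 14 *Bnc2*-only cells of mouse 1 had 254.0 UMIs per 10000 in smooth muscle markers, against 19.5 and 7.72 in mice 2 and 3. Some differences of *Sox4* and *Dcx* in this class are therefore also given without such cells, and its other values include them.

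Among the *Sox10*-positive, *Nos1*-only, *Chat*-only and *Bnc2*-only classes, the members were not told apart at the size of the sums. *Etv1*-only cells are taken up further below. *Neurod4* ranged, in means over mice, from 0.0526 ± 0.0345 UMIs per 10000 in *Sox10*-positive cells through 0.0862 ± 0.0782 in *Nos1*-only and 0.120 ± 0.107 in *Chat*-only to 0.161 ± 0.178 in *Bnc2*-only cells (SD, n = 3). That order held in no neighbouring pair beyond the SD. *Igfbpl1* was at 0.181 ± 0.131, 0.255 ± 0.257, 0.223 ± 0.247 and 0.303 ± 0.352 in the same classes, and all its 4 means lay within 1 SD of each other. *Insm1* was at 0.464 ± 0.0120, 0.526 ± 0.235, 0.341 ± 0.0644 and 0.391 ± 0.225. *Sox11* was at 1.001 ± 0.339, 1.33 ± 0.739, 1.39 ± 0.373 and 1.33 ± 0.826.

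Among these 4 classes *Sox4* was highest in *Sox10*-positive cells, at 5.26, 3.90 and 3.68 UMIs per 10000 in mice 1, 2 and 3, against 2.67, 2.77 and 3.18 in *Nos1*-only cells, 4.12, 3.004 and 2.75 in *Chat*-only cells and 1.54, 2.96 and 3.35 in *Bnc2*-only cells. *Sox10*-positive cells were above the other 3 classes in every mouse. *Dcx* was highest in *Chat*-only cells in mice 2 and 3, at 1.15 and 1.03, against 0.383 and 0.582 in *Sox10*-positive, 0.517 and 0.505 in *Nos1*-only and 0.821 and 0.662 in *Bnc2*-only cells. In mouse 1 the *Chat*-only value of 0.784 rested on 4 UMIs in 12 cells. It lay below the *Sox10*-positive value of 0.823 and the *Bnc2*-only value of 0.980 of that mouse. After thinning, *Bnc2*-only cells of mice 1 and 3 lay above *Chat*-only cells, whose highest value in any mouse was 1.24. The thinned means over 3 mice were 1.30 ± 0.661 in *Bnc2*-only and 0.957 ± 0.468 in *Chat*-only cells (SD, n = 3). Over mice 2 and 3 alone they were 1.02 and 1.23.

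These differences were tested with limma on log2(UMIs per 10000 + 0.1) of the sums per mouse and class, with the mouse as a block and 12211 genes tested. Of the 6 fitted members, 0 were called at an adjusted p under 0.05 in any of the 6 pairs of these classes, where 0.0491% to 1.66% of all genes were called. By pair, the shares of all genes called were 0.0491% for *Sox10*-positive minus *Nos1*-only, 1.57% minus *Chat*-only, 1.66% minus *Bnc2*-only, 0.581% for *Nos1*-only minus *Chat*-only, 0.925% minus *Bnc2*-only and 0.0573% for *Chat*-only minus *Bnc2*-only. Of these 36 member differences, 3 had an unadjusted p under 0.05. *Dcx* differed by -0.68 (SE 0.308, limma adjusted p 0.348) between *Sox10*-positive and *Chat*-only cells and by -0.71 (SE 0.308, limma adjusted p 0.544) between *Nos1*-only and *Chat*-only cells, and both signs turned when a class needed 2 UMIs (0.094 and 0.36). *Sox4* differed by 0.74 (SE 0.299, limma adjusted p 0.309) between *Sox10*-positive and *Bnc2*-only cells. Its difference was 0.80 without the 43 cells high in smooth muscle markers and 0.26 without mouse 1. These values do not show that the classes are alike.

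**Figure D2:**
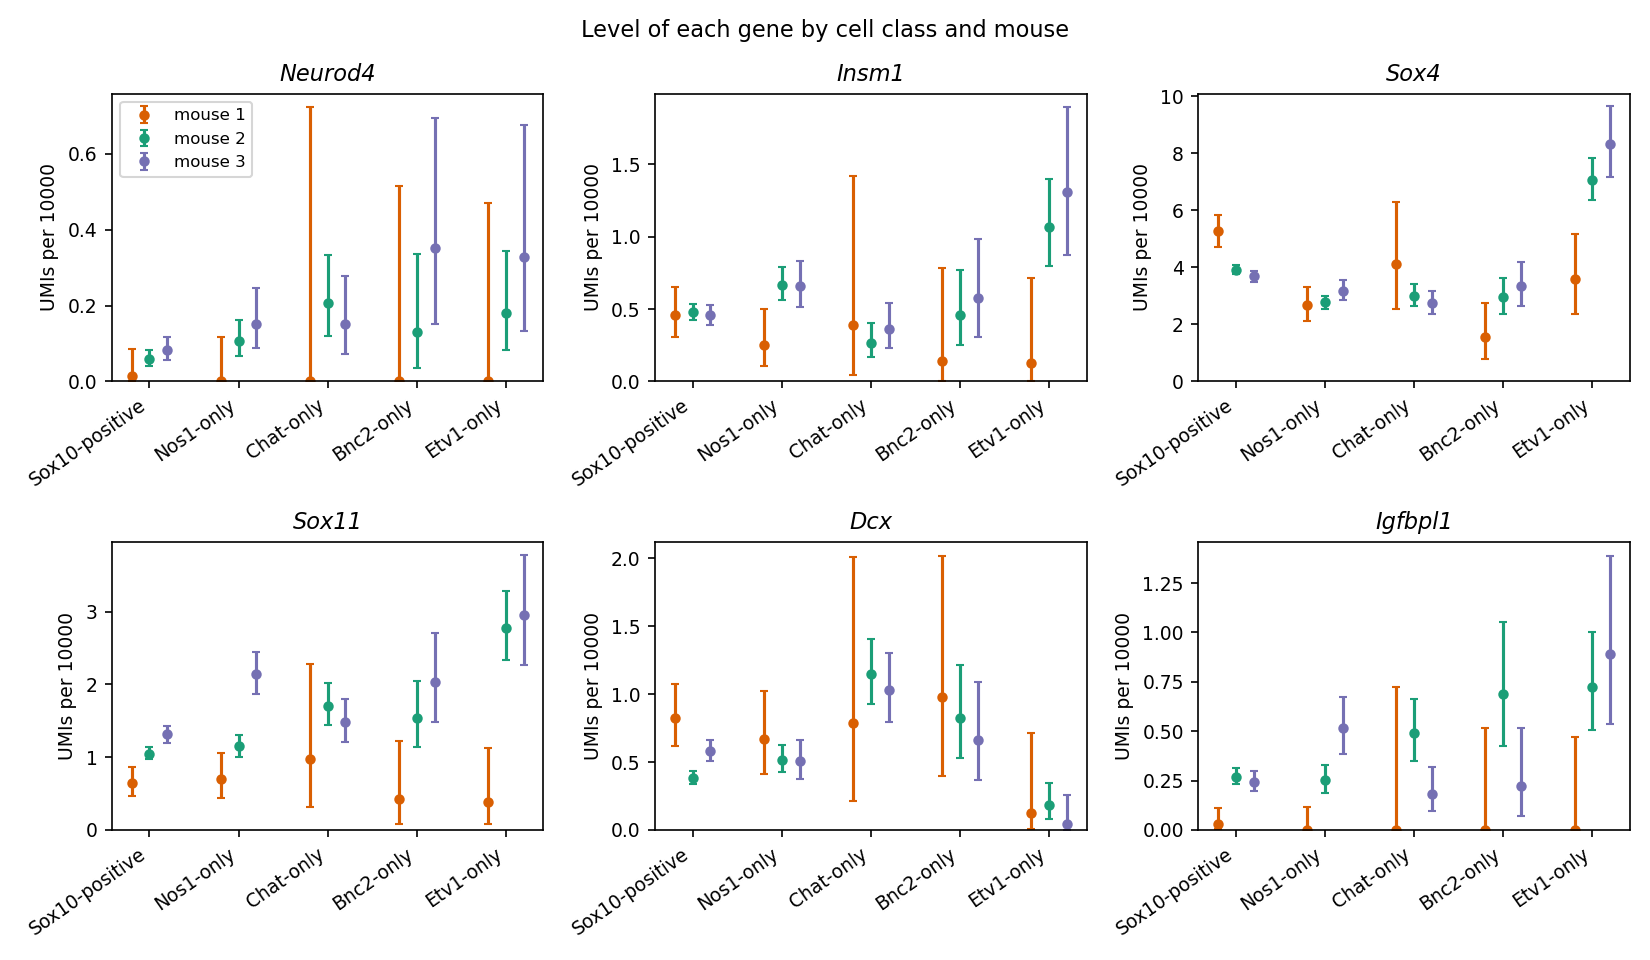
Level of each detected gene (UMIs per 10000) in the 5 classes of cells, with 1 point per mouse and exact 95% Poisson intervals. *Dcx* in *Etv1*-only cells lies at 0.0468 to 0.181, below its level in every other class of the same mouse, and *Sox4* in *Etv1*-only cells of mice 2 and 3 lies at 7.06 and 8.33.

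The 2 classes of cells set by *Bnc2* and *Etv1*, genes that mark distinct groups of enteric neurons, differed in *Dcx* and *Sox4*. *Dcx* was at 0.980, 0.821 and 0.662 UMIs per 10000 in *Bnc2*-only cells of mice 1, 2 and 3 and at 0.128, 0.181 and 0.0468 in *Etv1*-only cells. The *Etv1*-only values rest on 1, 9 and 1 UMIs. The log2 difference was 2.11 (SE 0.308, limma adjusted p 0.00124, higher in 3 of 3 mice), in a comparison where 2.6% of all genes were called.

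*Sox4* went the other way, at 1.54, 2.96 and 3.35 in *Bnc2*-only and 3.58, 7.06 and 8.33 in *Etv1*-only cells. Its log2 difference was -1.23 (SE 0.299, limma adjusted p 0.0373), lower in *Bnc2*-only cells in 3 of 3 mice. The other 4 fitted members had values without a call. *Insm1* was at 1.07 and 1.31 in *Etv1*-only cells of mice 2 and 3 against 0.460 and 0.574 in *Bnc2*-only cells, and at 0.128 against 0.140 in mouse 1. Without mouse 1, *Insm1* was called too (-1.06, limma adjusted p 0.0171), against -0.68 (limma adjusted p 0.453) with 3 mice. Without the 43 cells high in smooth muscle markers, a setting added after the data were seen, *Dcx* differed by 2.40 (limma adjusted p 0.00107) and *Sox4* by -1.26 (limma adjusted p 0.0317). Thinning, which also changes the cells in each class, ended both calls, with log2 differences of 1.076 (limma adjusted p 0.282) for *Dcx* and -0.95 (limma adjusted p 0.133) for *Sox4*. *Dcx* was then at 1.85, 0.565 and 1.47 in *Bnc2*-only cells and 0.5, 0.550 and 0.458 in *Etv1*-only cells of mice 1, 2 and 3, and mouse 2 had nearly equal values in both classes. Both calls were also lost on leaving out mouse 3 (0.0684 and 0.215), while *Sox4* also lost its call without mouse 2 (0.259). Both were lost when a class needed 2 UMIs (0.661 and 0.317). *Sox4* alone was lost at a pseudocount of 0.01 (0.0723), with no filter (0.177), with median centring (0.0570), without the block (0.0922) and with classes set without regard to *Sox10* (0.130). Enteric glial markers summed to 14.8, 7.71 and 7.72 in *Etv1*-only and 4.06, 1.81 and 1.24 in *Bnc2*-only cells of mice 1, 2 and 3, and their part in the result was not tested.

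Members were next counted in the same cells. At least 1 member was seen in 87.2% of cells, at least 3 in 30.4% and all 6 detected members in 7 cells. Since deep cells hold more genes of any kind, each pair was set against the number expected from the mouse and depth of each cell. *Neurod4* and *Igfbpl1* were found together in 63 cells where 16.6 were expected, a ratio of 3.78 (2.91 to 4.84), with 3.72 and 3.73 in mice 2 and 3. These 63 were 57.8% of the *Neurod4*-positive and 28.5% of the *Igfbpl1*-positive cells.

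Of the 15 pairs of detected members, 5 had an interval above 1 and none of these held *Dcx*. Beside the first pair they were *Neurod4* with *Sox11* (98 cells, ratio 1.59, 1.29 to 1.94), *Sox11* with *Igfbpl1* (193, 1.56, 1.34 to 1.79), *Insm1* with *Igfbpl1* (119, 1.53, 1.27 to 1.83) and *Insm1* with *Sox11* (334, 1.14, 1.03 to 1.27). The 3 pairs with an interval below 1 all held *Dcx*. They were *Dcx* with *Igfbpl1* (48 cells, 0.588, 0.433 to 0.779), with *Neurod4* (27, 0.653, 0.431 to 0.951) and with *Insm1* (155, 0.790, 0.671 to 0.925). The other 7 pairs included 1, among them both pairs of *Dcx* with a SoxC gene. The 10 pairs without *Dcx* all had a ratio above 1 in both mouse 2 and mouse 3. Cells are not replicates, so these ratios carry no test. The expected number takes 1 rate per gene and mouse for all cells, whatever their class. Pairs of other genes were not counted, so the share of all pairs with such ratios is not known.

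**Figure D3:**
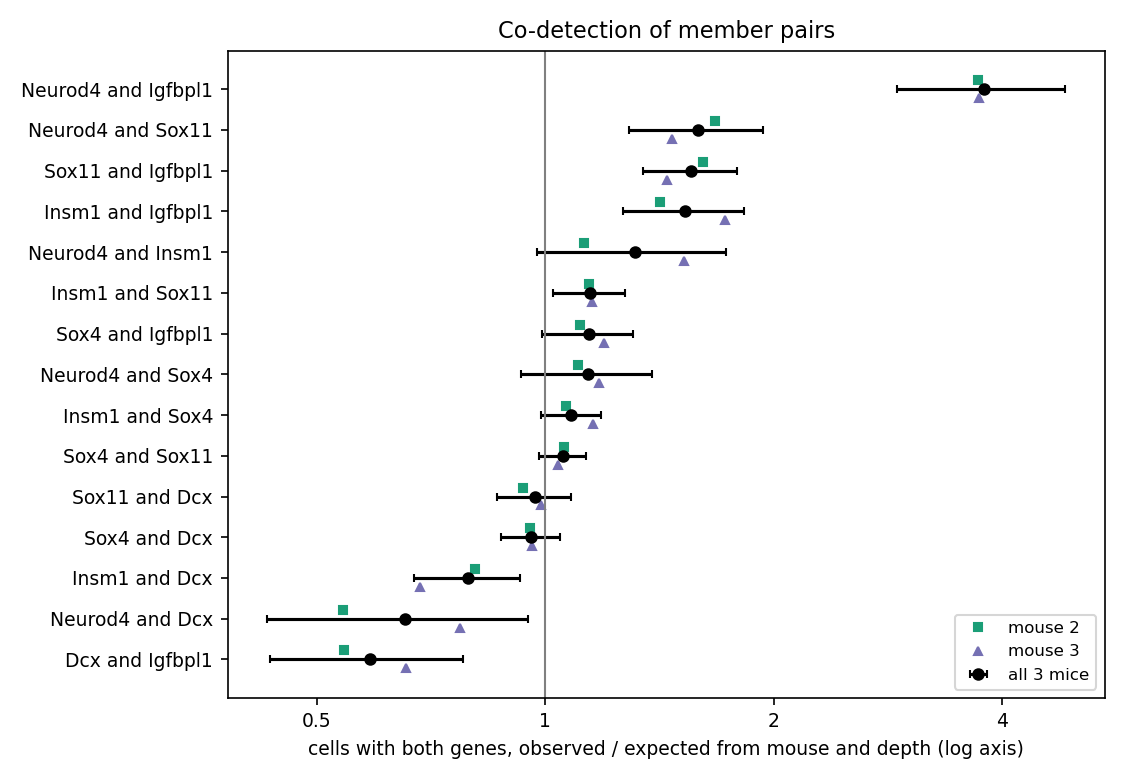
Ratio of cells with both genes to the number expected from mouse and depth (log axis) for the 15 pairs, with exact 95% Poisson intervals over all mice (black) and the ratios of mice 2 and 3. *Neurod4* and *Igfbpl1* lie farthest to the right at 3.78, and the lowest 3 pairs all hold *Dcx*.

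To ask which genes go with a member over mice, cells with a UMI of it were summed against cells without one in each mouse and compared with limma, the splitting gene left out. *Neurod1* had no positive cell. For *Neurod4* and *Igfbpl1* the fit of 3 mice was void: mouse 1 had 1 positive cell, the same cell for both genes, and with that lone cell as a sum the estimate of the spread broke down, with an infinite prior df and a smallest prior SD of 0.0021 on the log2 scale. Its p-values are not used, and these 2 genes are described from the fit of mice 2 and 3, taken up for that reason after the data were seen. That fit has 1 residual df per gene before moderation.

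In the 4 splits that could be fitted with 3 mice, 1 of 20 member pairings was called. *Sox4* was at 5.21, 4.82 and 4.42 UMIs per 10000 in *Sox11*-positive cells of mice 1, 2 and 3 and at 3.73, 2.60 and 2.58 in *Sox11*-negative cells. It was higher in *Sox11*-positive cells by 0.70 on the log2 scale (SE 0.109, limma adjusted p 0.048, higher in 3 of 3 mice), where 0.688% of all genes were called. This call ended after thinning (0.40, limma adjusted p 0.297), at a pseudocount of 1 (0.0719), without the mouse as a block (0.712), without *Sox10*-positive cells (0.0870), with 2 UMIs against none (0.121), without mouse 2 (0.0562) and, in a setting added after the data were seen, without the 43 cells high in smooth muscle markers (0.0507). The *Sox4* split had 28 genes called (0.229%) and no member among them, with *Sox11* at 1.01 (SE 0.198, limma adjusted p 0.0595) and *Igfbpl1* at 1.17 (SE 0.279, limma adjusted p 0.088). The *Insm1* and *Dcx* splits had 0 genes called by limma (0% of 12210), with 1242 and 2022 genes at an unadjusted p under 0.05. In *Dcx*-positive cells all 5 other detected members had negative differences, from -0.70 for *Igfbpl1* to -0.03 for *Sox11*. The sign of *Sox11* turned after thinning (0.15), with 2 UMIs against none (0.26) and without mouse 2 (0.09) or mouse 3 (0.14), and that of *Insm1* without *Sox10*-positive cells (0.061).

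Without mouse 1, 16 of 30 pairings were called, 8 of them in the *Sox4* and *Sox11* splits. In the *Sox11* split of mice 2 and 3 (5.35% of all genes called), *Igfbpl1* differed by 2.03, *Neurod4* by 1.14, *Insm1* by 0.90 and *Sox4* by 0.81. In the *Sox4* split (13.1% called), *Igfbpl1* differed by 1.64, *Sox11* by 1.34, *Insm1* by 1.33 and *Neurod4* by 0.73. The *Insm1* and *Dcx* splits still had 0 genes called. Nearest the cutoff in the *Insm1* split were *Igfbpl1* (1.05), *Sox11* (0.93) and *Sox4* (0.89), each at a limma adjusted p of 0.0579. In the *Dcx* split they were *Igfbpl1* (-0.93) and *Sox4* (-0.70), each at a limma adjusted p of 0.0578. Thinning mice 2 and 3 to 3000 UMIs left 6 of 25 pairings called. In the *Sox11* split 3 members lost their call, with differences of 1.54 for *Igfbpl1*, 0.87 for *Insm1* and 0.61 for *Sox4*, and *Neurod4* had too few UMIs to be fitted. The share of all genes called after thinning was 0.363% in the *Insm1* split, where *Sox4* was called, 5.99% in the *Sox4* split, where *Insm1* and *Sox11* were, and 0% in the *Sox11* and *Dcx* splits.

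In *Neurod4*-positive cells of mice 2 and 3, *Igfbpl1* was at 1.498 and 1.43 UMIs per 10000 against 0.243 and 0.202 in *Neurod4*-negative cells. *Sox11* was at 3.20 and 3.67 against 1.10 and 1.40, and *Sox4* at 5.83 and 5.14 against 3.60 and 3.49. The limma log2 differences were 2.28 (SE 0.130, adjusted p 0.0129), 1.40 (SE 0.0893, adjusted p 0.0143) and 0.61 (SE 0.0836, adjusted p 0.0319), where 6.6% of all genes were called. *Dcx* was lower in both mice, at 0.252 and 0.346 against 0.504 and 0.651, without a call (-0.77, limma adjusted p 0.0549). With cells thinned to 3000 UMIs, where 11.9% of all genes were called, the *Igfbpl1* (2.34) and *Sox11* (1.74) calls held. The *Sox4* call did not, and its difference was then 0.30 (limma adjusted p 0.522). The thinned fit rests on 27 and 14 positive cells in mice 2 and 3. Its median log2 difference over all genes was -0.28, with 0.726% of all genes called higher and 11.2% lower.

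In *Igfbpl1*-positive cells of mice 2 and 3 all 5 other detected members were called, where 13.6% of all genes were. *Neurod4* was at 0.390 and 0.495 against 0.0385 and 0.0568, a log2 difference of 1.87 (SE 0.152, limma adjusted p 0.0146). *Sox11* differed by 1.57, *Insm1* by 0.90 and *Sox4* by 0.87, all higher in both mice. *Dcx* was lower, at 0.299 and 0.400 against 0.520 and 0.661 (-0.62, SE 0.114, limma adjusted p 0.0367). After thinning, where 2.69% of all genes were called, *Neurod4* had too few UMIs to be fitted, the *Sox11* call alone remained (1.44, limma adjusted p 0.0489), and the differences without a call were 0.84 for *Insm1*, 0.71 for *Sox4* and -0.14 for *Dcx*. Without the *Sox10*-positive cells, which held the 1 positive cell of mouse 1, *Neurod4* (1.87), *Sox11* (1.47), *Sox4* (0.996) and *Insm1* (0.66) kept their calls and *Dcx* did not.

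**Figure D4:**
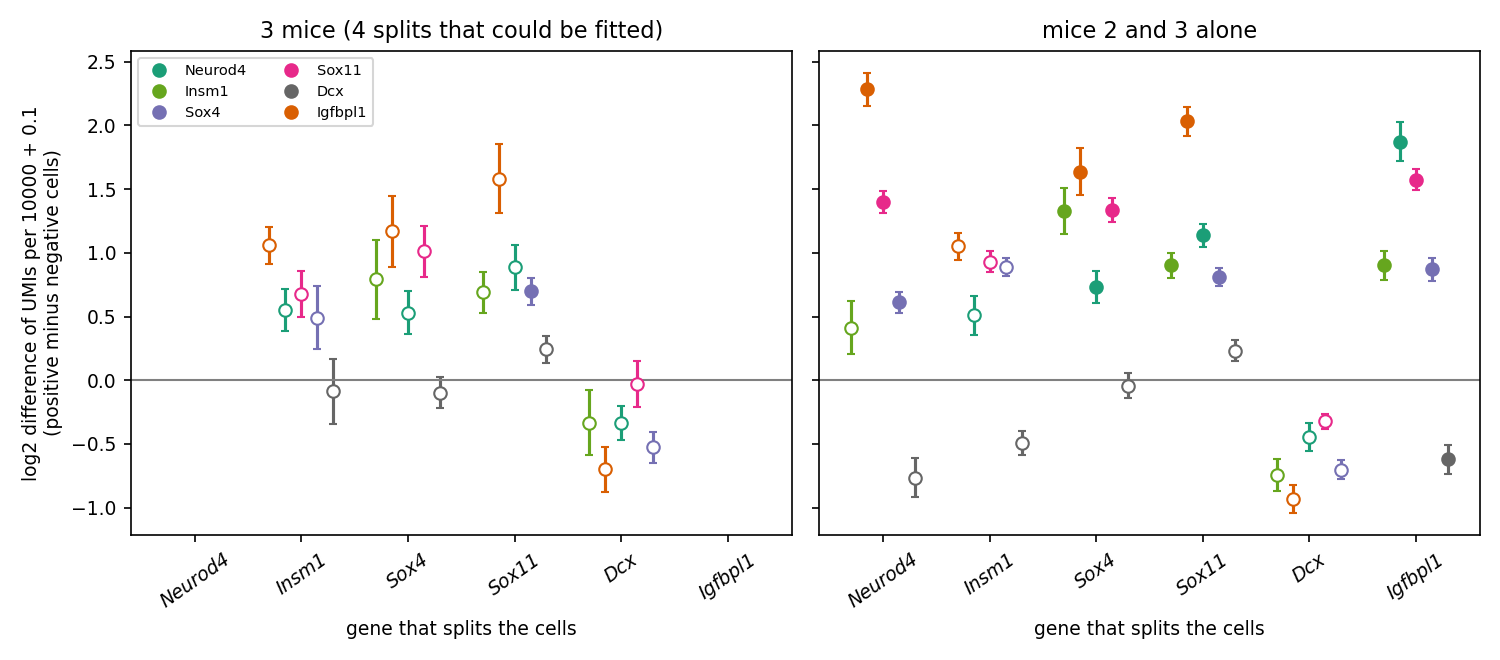
Log2 difference of each other member between cells with and without a UMI of the gene named on the axis (positive minus negative, UMIs per 10000 + 0.1), with 3 mice (left) and mice 2 and 3 (right). Bars are the SE, filled points have a limma adjusted p under 0.05, and the left panel leaves out *Neurod4* and *Igfbpl1*, whose 3-mouse fits were void.

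Lists of related genes gave the setting of the *Igfbpl1* split in mice 2 and 3. Of 32 tested genes of the neurogenic cascade, 18 were higher and 1 lower, with a median log2 difference of 0.66 against -0.06 over all genes. Of all genes, 3.24% were called higher and 10.4% lower. Of 26 mature neuron genes, 0 were higher and 18 lower (median -0.92). Of 24 genes of the immature neuron cytoskeleton, 2 were higher and 9 lower (median -0.10), and of 22 cell cycle genes 1 was higher and 0 lower (median -0.15). These lists were drawn up with earlier results of these cells known, so their direction is not independent evidence.

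The cascade genes with the largest rise were *Mfng*, a modifier of Notch, at 1.41 and 1.12 UMIs per 10000 in *Igfbpl1*-positive cells of mice 2 and 3 against 0.381 and 0.264 (log2 difference 1.70), *Phox2a*, a factor of autonomic and enteric neurons (1.66), and *St18*, a zinc finger factor of neurons (1.57). *Neurod6* was the lower one, by -0.96. Among mature genes, the neurofilament-like *Prph* was at 0.963 and 0.968 against 5.62 and 5.203 (-2.37), the neurofilament *Nefl* differed by -2.08, and the sodium channels *Scn9a* and *Scn3a* by -2.05 and -1.78. Of the cytoskeleton genes, *Stmn2*, which regulates microtubules in growing axons, was at 3.93 and 7.07 against 22.6 and 21.3 (-2.03), while *Tubb3*, neuronal beta-tubulin, was higher by 0.66. All these had limma adjusted p from 0.00785 to 0.0227. With thinning 7 cascade genes were higher and 6 mature genes lower, where 0.373% of all genes were called higher and 2.32% lower.

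The *Neurod4* split of mice 2 and 3 gave 12 cascade genes higher and 0 lower of 32, 0 mature genes higher and 9 lower of 26, 1 higher and 5 lower of 24 cytoskeleton genes, and 1 cell cycle gene higher of 22, where 1.47% of all genes were called higher and 5.13% lower. *St18* (1.75) and *Phox2a* (1.63) led the cascade and *Prph* (-2.29) and *Nefl* (-2.14) the mature genes. In the *Sox11* split of 3 mice, 3 of 32 cascade genes were higher and 3 of 26 mature genes lower, against 0.18% and 0.508% of all genes, among the latter *Prph* (-0.997, limma adjusted p 0.0346). In the *Sox4* split of 3 mice 2 of 32 cascade genes were higher and 0 lower, where 0.229% of all genes were called, and *Cdkn1c*, a cell cycle inhibitor, was among the 2 (0.95, limma adjusted p 0.0475).

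The cells with both *Neurod4* and *Igfbpl1* numbered 1, 36 and 26 in mice 1, 2 and 3. By class they were 26 of the 1088 *Sox10*-positive (2.39%), 13 of the 418 *Nos1*-only (3.11%), 8 of the 172 *Chat*-only (4.65%), 6 of the 73 *Bnc2*-only (8.22%) and 5 of the 103 *Etv1*-only cells (4.85%), with 5 in the remaining cells. *Phox2a* was at 11.6 and 9.28 UMIs per 10000 in them in mice 2 and 3, against 2.15 and 2.17 in cells with neither gene, and *Stmn2* at 2.79 and 5.79 against 23.1 and 21.7. Their median depth was 10789 and 12813 UMIs against 9202 and 8793.5, so the groups are of unequal depth. These genes were chosen after their values were seen and carry no test. Cells with only 1 of the pair had *Phox2a* and *Stmn2* levels between those of the other 2 groups in both mice.

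**Figure D5:**
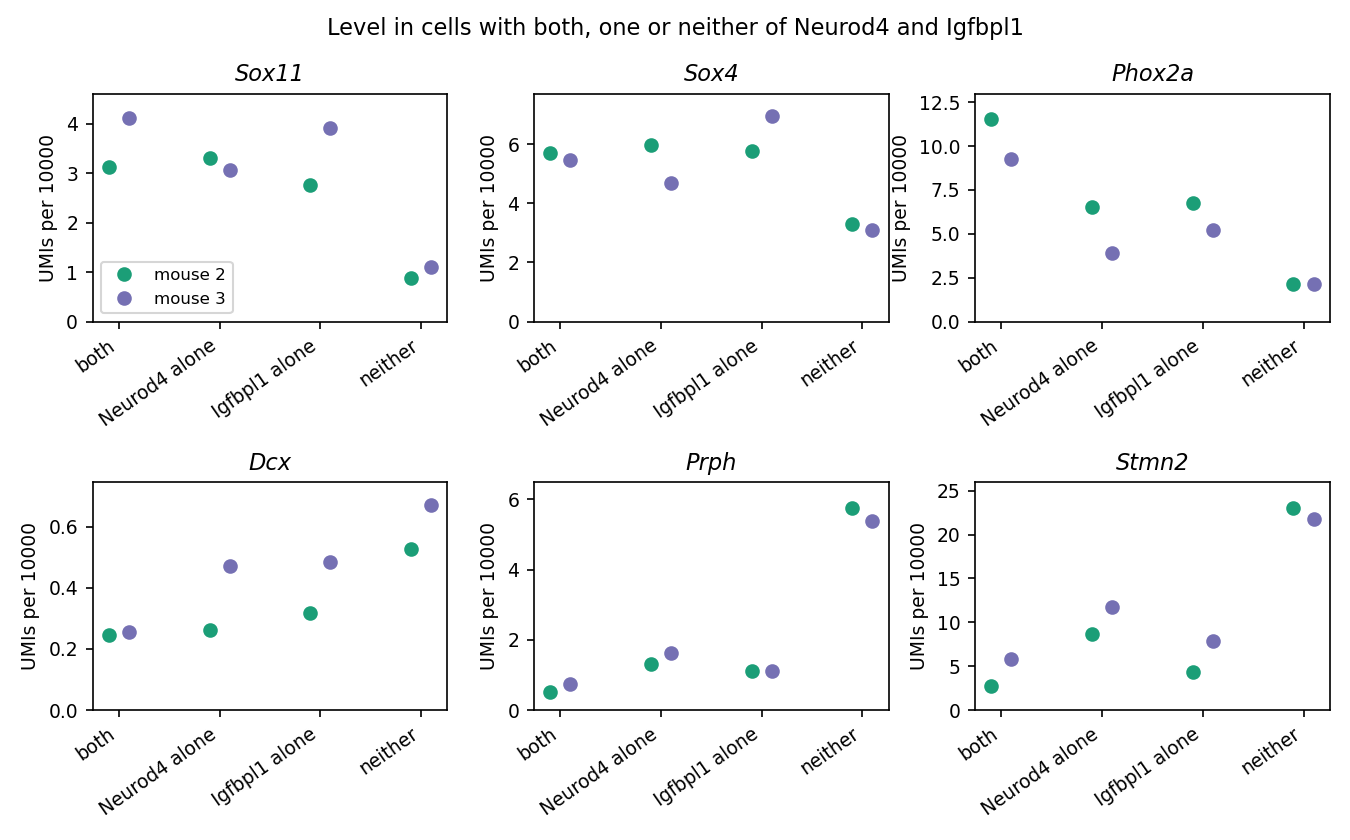
Level (UMIs per 10000) of 6 genes in cells with both, 1 or neither of *Neurod4* and *Igfbpl1*, with 1 point each for mice 2 and 3 and no error bars. *Sox11*, *Sox4* and *Phox2a* are lowest in cells with neither gene, while *Dcx*, *Prph* and *Stmn2* are highest there.

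The genes most like each member were ranked by Pearson r across cells after a fit on depth, among 10661 genes, as a description in cells that share library and depth. Over the 3 mice, the 3 genes most like *Insm1* included *Ppp1r14b* (mean r 0.253) and *Tmsb4x* (0.220), those most like *Sox4* included *Eef1a1* (0.468) and *Tpt1* (0.364), and those most like *Sox11* included *Nfib* (0.341) and *Nfix* (0.323). *Dcx* was most like *Ahi1* (0.268), *Meg3* (0.257) and *Hoxa5* (0.254), none of which was among the first 3 of another member. *Neurod4* and *Igfbpl1* were each most like the other (0.553), followed by *Cilp* and *Pdzrn3* for *Neurod4* and *Cilp* and *Kcne1l* for *Igfbpl1*. That value includes r = 1 in mouse 1 from 1 shared cell, and r was 0.328 and 0.330 in mice 2 and 3. The place of *Cilp* also rests on mouse 1, where its r was 0.556 with both genes, against 0.117 and 0.128 with *Neurod4* and 0.197 and 0.165 with *Igfbpl1* in mice 2 and 3. Over those mice alone, a ranking added after the data were seen put *Chodl* first for both genes, at 0.331 for *Neurod4* and 0.416 for *Igfbpl1*. In it *Igfbpl1* was the second for *Neurod4*, but *Neurod4* was not among the first 10 for *Igfbpl1*.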

How the data were processed

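Single cells from 3 *Ednrb*-/- mice, 1 library each, were analysed, so separate samples are separate mice. The authors aligned reads to mm10 with Cell Ranger (its version is not given in the sources used here), kept cells with 1500 to 5000 genes and under 12.5% mitochondrial reads, merged the mice and removed cells they held not to be neurons. The deposited values are the natural log of 1 + UMIs per 10000 of a cell. From them whole UMIs were recovered for 100% of 6435281 values above 0 (within 1e-06), and 0 columns lay outside the 3 samples.

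UMIs were summed per mouse and class. Tests were made with limma 3.58.1 (R 4.3.3; trend, mouse as block) on log2(UMIs per 10000 + 0.1) for genes with at least 50 UMIs, with Benjamini-Hochberg adjustment over all genes tested and calls at an adjusted p under 0.05. Counts and intervals used Python 3.11.15, numpy 2.4.6 and scipy 1.17.1. The classes were set here from single genes and are not the authors' cell types, and no doublet caller was run. On simulated data for *Nos1*-only minus *Chat*-only cells, with 12211 genes, limma found 21% of 2-fold and 73% of 4-fold changes with 0 false calls. The simulated sums had a fixed added spread and no difference between mice, and were not matched to the spread of the real sums. The changed genes were drawn above a set level, and the class means of *Neurod4* (0.0526 to 0.170) lay under it. These shares are therefore not the power for the members.

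The members and lists were chosen with earlier results of these data known. Named genes were the members, the class genes, the 3 genes most like each member and, per list and comparison, up to 4 called genes per direction. Alternatives were other pseudocounts, filters, scalings, weights, positivity at 2 UMIs, thinning, other cell sets, no block and each mouse left out. Some genes that met the naming rule are not reported here.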

Additional observations from a re-analysis of the deposited data

How the results depend on the processing

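Without the replicate block, limma called 0 member pairings over the splits against 1 with it, and 1 member between *Bnc2*-only and *Etv1*-only cells against 2. Between those 2 classes 1 member was also called at a pseudocount of 0.01, with no filter, with median centring and with classes set without regard to *Sox10*, 0 with 2 UMIs for a class or thinning, and 0 to 3 with a mouse left out. In these settings the share of all genes called there was 0.991% without the block, 1.81%, 0.683%, 2.42% and 1.49% in the next 4, 0.18% and 1.11% with 2 UMIs and thinning, and 9.44%, 0.393% and 0.369% without mouse 1, 2 and 3. Array weights, whose fit gave a convergence warning, called 1, 5 and 2 members between *Sox10*-positive and *Nos1*-only, *Sox10*-positive and *Chat*-only, and *Nos1*-only and *Chat*-only cells, where the equal-weight fit called 0. With these weights 16.1%, 28.9% and 12.7% of all genes were called. Classes set without regard to *Sox10* called 1, 2 and 1 members between *Sox10*-positive and *Nos1*-only, *Chat*-only and *Bnc2*-only cells, where 1.7%, 5.59% and 2.28% of all genes were called.

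Over the splits, 0 pairings were called at a pseudocount of 1, after thinning or without the cells of 3% smooth muscle UMIs, 7 without *Sox10*-positive cells, 3 with 2 UMIs against none, 6 after thinning without mouse 1, and 2 to 16 with a mouse left out. Without *Sox10*-positive cells the 7 were 3 in the *Neurod4* split (8.38% of all genes called) and 4 in the *Igfbpl1* split (20.2%), and with 2 UMIs there was 1 each in the *Neurod4* (0.205%), *Sox4* (2.45%) and *Sox11* (0.385%) splits. Without mouse 2 there were 2 in the *Sox4* (0.704%) and 1 in the *Sox11* split (1.29%), and without mouse 3 there were 2 in the *Sox11* split (1.57%). The number of splits that could be fitted differed between these settings, from 4 to 6. Signs turned for *Dcx* with 2 UMIs for a class (*Sox10*-positive minus *Chat*-only 0.094, *Nos1*-only minus *Chat*-only 0.36), without *Sox10*-positive cells in the *Insm1* (0.17) and *Sox4* (0.067) splits, and after thinning without mouse 1 in the *Sox11* split (-0.0049). In the *Dcx* split *Insm1* turned without *Sox10*-positive cells (0.061), and *Sox11* after thinning (0.15) and with 2 UMIs (0.26). With a mouse left out, *Dcx* in the *Insm1* split ranged from -0.49 to 0.15 and *Sox11* in the *Dcx* split from -0.32 to 0.14. *Sox4* ranged from -0.15 to 0.61 in the *Neurod4* split and from -0.050 to 0.87 in the *Igfbpl1* split, where the negative values come from fits that kept mouse 1 and its 1 positive cell and were void. The cause of these changes was not tested. Mouse 1 held 1 UMI of *Neurod4* and 2 of *Igfbpl1*, so values of these genes in it are imprecise.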
